A study of Pomatostomus ruficeps with 28 samples.

Results

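Nestling chestnut-crowned babblers (Pomatostomus ruficeps) with few days since rain were compared with nestlings with many days since rain. The members were chosen by the number of days since rain deposited for each nestling, with fewer than 30 days on the recent rain side and 30 days or more on the long dry side. All 28 nestlings of the series had a value, and 9 fell on the recent rain side and 19 on the long dry side. The choice used no methylation value. DNA from blood was converted enzymatically, which turns unmethylated cytosines into bases read as thymine, and sequenced across the genome, so that each CpG site had a methylation level, the percentage of its reads that were methylated. The birds came from wild nests, but their eggs had been taken to an incubator for hatching and the chicks returned to their own or to an unrelated nest. Days since rain was not manipulated, and the paper's sampling covered different breeding seasons. How rain was recorded, and to which date of a nestling's life the days were counted, was not given in the sources used here. Days since or after rain below are the deposited numbers, and the names of the sides stand for them.

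Methylation of the cytosine in a CpG is a covalent mark that is copied when cells divide, and in vertebrates most CpG sites in the genome carry it, while many sites near gene starts do not. Blood of birds consists mainly of red blood cells, which keep their nucleus, so a blood sample gives DNA mostly of this cell type. Chestnut-crowned babblers live in the arid and semi-arid inland of Australia, where they breed as pairs or as cooperative groups in which helpers feed the brood, and where rain governs the supply of invertebrate food. The question put to the data was whether DNA methylation of nestlings differed with the time since rain.

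The recent rain side held 6 nestlings raised by a group (3 or more carers) and 3 raised by a pair (2 carers), aged 14 to 17 days. Their days since rain were 1 to 14, with a median of 4 days. The long dry side held 13 nestlings raised by a group and 6 raised by a pair, aged 14 to 20 days, with 34 to 73 days since rain and a median of 51 days. No nestling lay close to the limit of 30 days. The nearest inside was nestling 62645, raised by a pair, at 14 days since rain. The nearest outside was nestling 62605, raised by a group, at 34 days since rain. Nestlings are named by their ring numbers.

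The sides differed in how many natal groups they came from. The recent rain side held 5 natal group codes, and 4 of its 9 nestlings carried the same code, OFS, while a further 2 carried the code OFQ. The long dry side held 16 codes. Of the 19 codes, CEG and EFH occurred on both sides, with 1 nestling on each. The natal code is that of the group of origin, and some nestlings of the study were cross-fostered, so nestlings that share a code need not have shared a nest.

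A difference between the sides in carers, age or depth was not detected. The share raised by groups was 6 of 9 against 13 of 19 (Fisher's exact test, two-sided, p = 1). Age was 15.4 ± 1.33 days (SD, n = 9) after recent rain and 16.1 ± 1.81 days (SD, n = 19) in the dry spell (permutation test, two-sided, p = 0.409). The mean number of reads behind a value was 9.56 ± 1.36 (SD, n = 9) and 9.93 ± 1.99 (SD, n = 19), respectively (permutation p = 0.627). Growth rate, the number of sites with a value and the share of values under 10 reads gave permutation p-values of 0.826, 0.848 and 0.953. The median share of values under 10 reads was 62.8% after recent rain and 59.7% in the dry spell. Nestling 79687 of the recent rain side entered with 12.7 reads per value and 0% of values under 10 reads. The depth comparisons were not repeated without it. Ring numbers below 70000 were carried by 2 of 9 recent rain and 7 of 19 dry nestlings (Fisher's exact test, two-sided, p = 0.670). Hatching mass was 3.13 ± 0.315 g (SD, n = 7) after recent rain and 2.90 ± 0.239 g (SD, n = 15) in the dry spell (permutation p = 0.0757, adjusted p = 0.606 over 8 comparisons). The heaviest hatchling, of 3.62 g, was on the recent rain side and the lightest, of 2.28 g, on the dry side, and the ranges overlapped between 2.77 and 3.22 g.

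**Figure D1:**
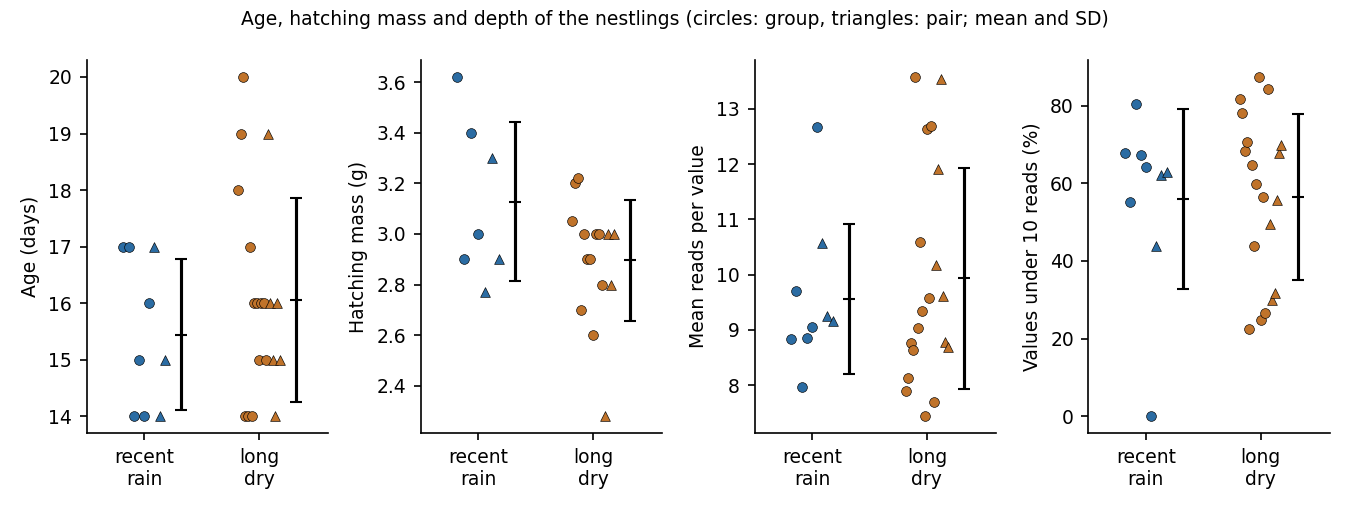
Age in days, hatching mass in g, mean reads per value and percent of values under 10 reads for each nestling (circles raised by groups, triangles by pairs), by rain side, with mean and SD as bars. The sides overlapped in all 4 measures, and the point at 0% under 10 reads is nestling 79687.

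Recovered reads summed to between 7582133 and 15160360 in a nestling of the recent rain side (median 11360161) and between 5266843 and 19539803 in a nestling of the dry side (median 11314442). In the 27 nestlings with recovered reads, a value was present only where a site had at least 5 methylated or at least 10 unmethylated reads. There a value of 100% could rest on 5 reads and a value of 0% rested on at least 10. This condition leaves out part of the low values of shallow nestlings, and only values of 14 reads or more are free of it. In nestling 79687, with deposited reads, every value rested on at least 10 reads. Wilson intervals and the upper limits behind values of 0% given below cover counting error only, and reads copied by PCR are not independent molecules. Intervals of a difference between the sides rest on the spread between nestlings.

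A pair of libraries of the recent rain side stood apart. Nestling 79687, raised by a group and at 3 days since rain, was the only one with deposited methylated and unmethylated reads. No value of it rested on fewer than 10 reads. It had values at 629681 sites, the fewest of all nestlings. Nestling 79676, raised by a pair, was at 4 days since rain. It had the lowest mean methylation of the 28 over the sites with a value in every nestling. Over all sites of the 60% rule described below 4 nestlings were lower, with 62525 and 79687 the lowest. Results that rest on them are given with and without them.

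Mean methylation over sites with a value in every nestling was slightly lower after recent rain, but a difference was not detected. The gap was smaller than the spread between nestlings. Such sites were 0.494% of those in the table and not typical of it. Over all sites at which they had a value, nestlings averaged 80.8% (79687) to 88.3% (79556). Over the 7729 CpG sites with a value in all 28 nestlings, the level was 75.3% ± 1.09 (SD, n = 9) after recent rain and 75.8% ± 0.978 (SD, n = 19) in the dry spell, a difference of -0.538 percentage points (permutation test, two-sided, p = 0.204). With the nestlings split at the median of 46 days instead, 14 against 14, it was -0.0878 points (permutation p = 0.832). The 95% interval of the difference at the limit of 30 days, from inverting the permutation test, ran from -1.37 to 0.29 points. Levels after recent rain had a lowest value of 72.6%, a median of 75.5% and a highest value of 76.2%, and levels in the dry spell 73.7%, 76.0% and 77.6%. The sides overlapped over most of their range: 1 recent rain nestling lay below the lowest dry one and 6 dry nestlings above the highest recent one.

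The nestling below the dry range was 79676, at 72.6%, whose nearest neighbour on its side was 62645, at 74.8%. Without nestling 79676 the difference was -0.204 points (permutation p = 0.581, n = 8 and 19, interval -0.95 to 0.54). Nestling 79677, of the same natal code and also with 4 days since rain, was at 75.3%. Without nestling 79687 the difference was -0.586 points (permutation p = 0.190), and without both it was -0.210 points (permutation p = 0.594).

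**Figure D2:**
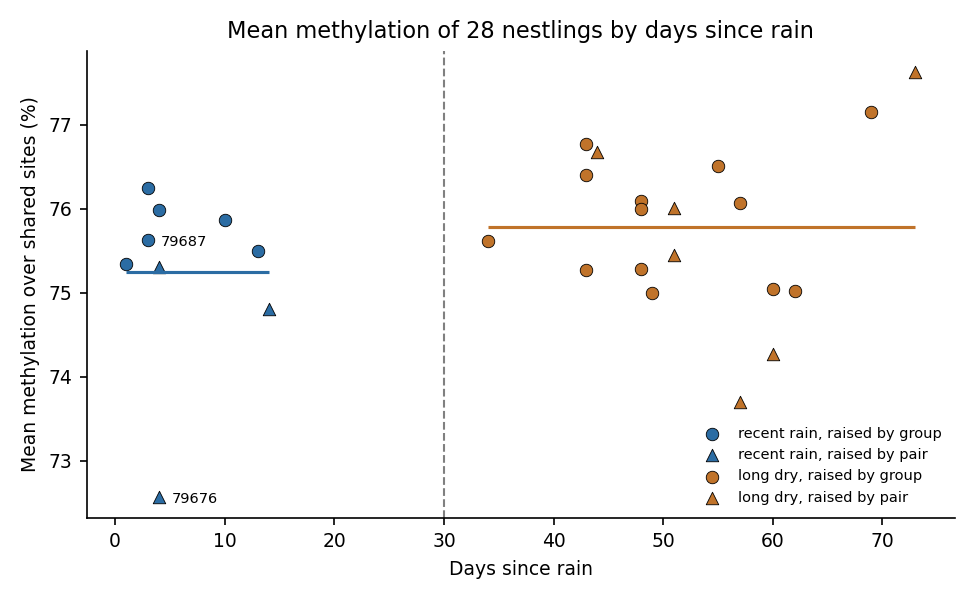
Mean methylation in percent over the 7729 shared sites against days since rain, 1 point per nestling (circles raised by groups, triangles by pairs), with the mean of each side as a horizontal line and the limit of 30 days dashed. The means lay at 75.3% and 75.8%, and nestling 79676 at 72.6% was below all others.

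Within carer classes, the difference was -0.104 points in nestlings raised by groups (75.8% ± 0.331, SD, n = 6, against 75.9% ± 0.717, SD, n = 13, exact permutation test, two-sided, p = 0.741). In nestlings raised by pairs it was -1.40 points (74.2% ± 1.45, SD, n = 3, against 75.6% ± 1.47, SD, n = 6, exact permutation test, p = 0.214), with nestling 79676 among the 3. The difference between carer classes in the rain difference was 1.29 points (permutation of the rain side within carer class, p = 0.276), and over all sites of the 60% rule it was 0.572 points (p = 0.675), so a rain difference that depended on carers was not detected. With 1 mean per natal group and side the difference was -0.584 points (5 against 16 means, exact permutation p = 0.263). By ring number, it was -0.520 points below 70000 (n = 2 and 7) and -0.577 points above (n = 7 and 12, exact permutation p = 0.207).

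The natal codes present on both sides gave the only comparison within a natal group. Of code CEG, nestling 62645, raised by a pair, was at 74.8%, 14 days after rain. Nestling 79578, raised by a group, was at 75%, 49 days after rain. Of code EFH, nestling 79633 was at 76.0%, 4 days after rain, and nestling 62605 at 75.6%, 34 days after rain. Both nestlings of code EFH were raised by groups, and in each code 1 ring number lay below 70000 and the other above. The nestlings of each of the 2 codes differed by less than 1 point, in opposite directions.

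Time since rain varied widely within the dry side, and over its 19 nestlings a relation with methylation was not detected. Because the days formed separate clusters, from 1 to 14 and from 34 to 73, the relation was taken within each side. Among the 19 dry nestlings Pearson's r was 0.104 (permutation p = 0.674, adjusted p = 0.994 over both sides) and Spearman's rho was -0.082 (permutation p = 0.737, adjusted p = 0.737). Without the 2 nestlings farthest from the median number of days r was -0.487 (permutation p = 0.0464), so the relation turned sign with these nestlings, and neither value is read as a trend. Over all sites of the 60% rule r was -0.227 (permutation p = 0.351), and -0.479 without the same 2 nestlings (permutation p = 0.0518). With values of at least 14 reads r was 0.0995 (permutation p = 0.683), and -0.436 without these 2 (permutation p = 0.0797). Among the 9 recent rain nestlings r was -0.003 (permutation p = 0.994) and rho was -0.281 (permutation p = 0.462), with adjusted values of 0.994 and 0.737. Without the 2 farthest from the median r was 0.0949 (permutation p = 0.724), and without nestling 79676 it was -0.431 (permutation p = 0.287).

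Sites were next grouped by their mean level over all nestlings, since a change at sites of low or intermediate level could be lost in a mean. Of the 1564780 sites in the table, 1242931 (79.4%) had a value in at least 60% of each side, that is in 6 of 9 and 12 of 19 nestlings. Most of these were highly methylated: 994397 sites were above 80%, 247457 between 20% and 80% and 1077 below 20%. The authors had removed sites that varied little between nestlings, so these counts are not shares of all CpG sites in the genome. The recent rain side was lower in each class, by less than 1 point before depth was taken into account.

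At sites below 20%, nestlings after recent rain deviated from the site mean by -0.409 ± 0.668 points (SD, n = 9) and nestlings in the dry spell by 0.154 ± 1.05 points (SD, n = 19), a difference of -0.563 points (permutation p = 0.154, adjusted p = 0.463 over 3 classes, interval -1.35 to 0.22). At sites from 20% to 80% the difference was -0.647 points (permutation p = 0.536, adjusted p = 0.536, interval -2.78 to 1.47). At sites above 80% it was -0.466 points (permutation p = 0.4, adjusted p = 0.536, interval -1.59 to 0.65). The ranges overlapped in each class: at sites of 20% to 80% recent rain nestlings ran from -3.49 (79687) through 0.262 to 3.03 points (79633) and dry ones from -4.87 (62525) through 1.23 to 4.62 points (61511). No class differed beyond the spread between nestlings. Without nestling 79687 the difference at sites from 20% to 80% shrank to -0.223 points (permutation p = 0.832) and that above 80% to -0.277 points (permutation p = 0.626), and without nestling 79676 the latter was -0.263 points (permutation p = 0.643).

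**Figure D3:**
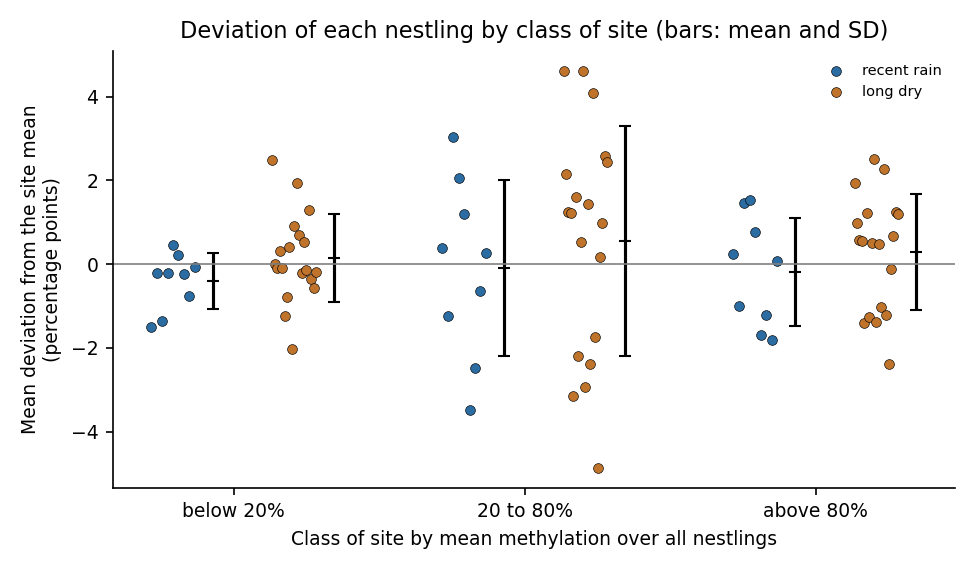
Mean deviation from the site mean in percentage points for each nestling, by class of site and rain side, with mean and SD as bars. At sites of 20% to 80% nestlings ranged from -4.87 to 4.62 points, and the differences between sides were -0.563, -0.647 and -0.466 points.

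Depth moved with these deviations. Across the 28 nestlings, mean reads per value and the deviation at sites of 20% to 80% had r = -0.826 and rho = -0.904 (both permutation p = 1e-05, the smallest that 100000 resamples give, adjusted p = 2e-05 over 6 measures), and r was -0.907 without the 2 nestlings farthest from the median depth. The relation was also present at sites above 80% (r = -0.766, permutation p = 1e-05, rho = -0.842) and over all rule sites (r = -0.793, permutation p = 1e-05, rho = -0.865). It was not detected for values of 14 reads or more (r = 0.114, permutation p = 0.563, rho = 0.0969, permutation p = 0.624). Over the shared sites r was -0.202 (permutation p = 0.301) and rho -0.423 (permutation p = 0.0257). With values of 14 reads or more, at 15183 sites, the rain difference was -0.538 points (permutation p = 0.169, interval -1.31 to 0.24). Nestling 79676, the lowest of its side at -2.51 points against -0.641 for the next, was included, and this difference was not computed without it.

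Over all rule sites the difference was -0.513 points (permutation p = 0.427, interval -1.83 to 0.79). After mean reads per value had been taken out by a linear fit it was -0.768 points, with an unadjusted permutation p of 0.0452. This fit was an alternative chosen after seeing the data. Over the shared sites, with carer class, age and mean reads taken out, the difference was -0.562 points and was not detected (permutation p = 0.159). With mean reads alone taken out, rule sites below 20% gave -0.502 points (permutation p = 0.183). Those from 20% to 80% gave -1.07 points (permutation p = 0.0600) and those above 80% -0.677 points (permutation p = 0.0512), also unadjusted. Without nestling 79687 the value over all rule sites was -0.778 points (permutation p = 0.0574), without nestling 79676 -0.571 points (permutation p = 0.126), and without both -0.560 points (permutation p = 0.161).

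Nestlings of one side were not detectably more alike than nestlings of different sides. The mean absolute difference in methylation over the 7729 shared sites was 11.58 points between nestlings of different sides and 11.47 points between nestlings of the same side (difference 0.112 points, permutation test over nestlings, one-sided, p = 0.155). Pairs within the recent rain side differed by 11.69 points and pairs within the dry side by 11.42 points. Without nestling 79676 the difference between and within sides was 0.0765 points (permutation p = 0.268), and without nestling 79687 it was 0.149 points (permutation p = 0.120).

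Each site of the 60% rule was then tested with limma on logit values, with carer class and age as covariates and the natal code as a block, and called at a Benjamini-Hochberg adjusted p of at most 0.05. Of 1242931 sites, 4 (0.000322%) were called, of which 3 (0.000241%) were lower and 1 (8.05e-05%) was higher after recent rain. An unadjusted p under 0.05 was found at 61583 sites (4.95%), and the inflation factor, the median chi-square of the p-values over its expected value, was 0.995. The raw mean was lower after recent rain at 51.2% of sites, and the median raw difference was -0.149 points. Of the 1242931 sites, raw means lay at least 25 points apart at 394 that were lower and 197 that were higher after recent rain. The direction of these counts was not tested, and the sides were unequal, with a median of 7 recent rain and 14 dry nestlings per site. Among the 1209 sites with an unadjusted limma p of at most 0.001, 41.4% were lower. That set was no larger than chance alone gives, so no direction is read from it. The typical site could not resolve a small change, since the median 95% half-width of the fitted difference was 10.5 points.

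How many sites were called depended on the model. Beta regression was fitted on rain side, carer class and age, without the natal code as a block. It called 4961 sites (0.399%), with an inflation factor of 1.29. Quasi-binomial regression on recovered reads, also without the block, called 0 of 1236727 sites, with 55274 at an unadjusted p under 0.05 and an inflation factor of 1.07. Sites where this fit failed were not tested, such as position 47769 of scaffold VYZT01004172.1, where all dry nestlings were at 100%. Left unmoderated, that is with each site's own variance alone, the linear model called 10 sites, none of which was among the 4. The residual SD on the logit scale had a median of 1.09 and a 99th percentile of 1.504. At the 4 called sites, in the order L1, L2, L3 and H1 used below, it was 1.23, 2.02, 1.499 and 2.08. Moderation draws all variances towards a common value, which lowers such large ones. In the unmoderated linear model the adjusted p-values of these sites were 0.147, 0.521, 0.521 and 0.757.

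**Figure D4:**
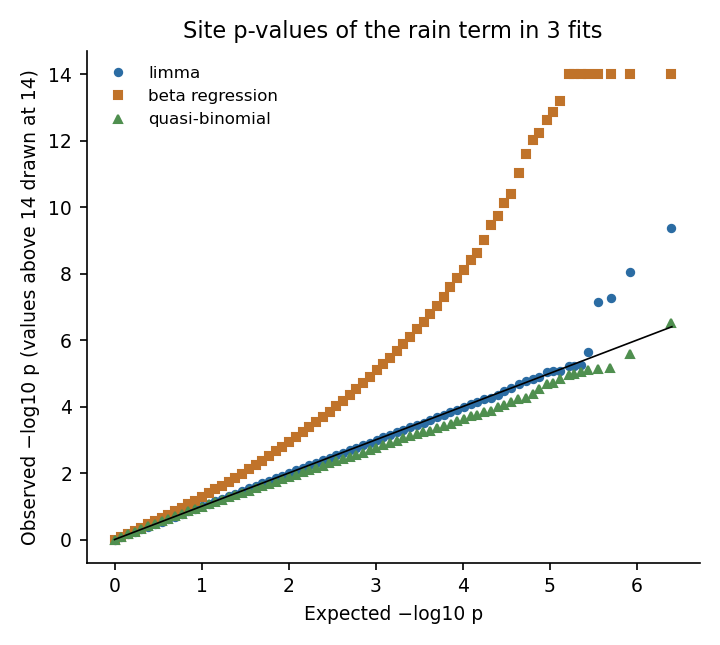
Observed against expected -log10 p of the rain term at the tested sites for limma, beta regression and quasi-binomial regression, with the line of equality, and values above 14 drawn at 14. The limma points followed the line except for the 4 called sites, while those of beta regression rose above it (inflation factor 1.29).

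The called sites are named L1 to L3 (lower after recent rain) and H1 (higher), with positions on the scaffolds of the chestnut-crowned babbler genome as deposited. Genes near them were not analysed here, because no annotation was used. Each called site held values of 10% or less in some nestlings and of 90% or more in others, which was the case at 11594 (0.933%) of the tested sites. With such sites left out (an alternative chosen after seeing the data), which takes out all 4 called sites, limma called 0 of the rest, with 60709 at an unadjusted p under 0.05. Whether the DNA sequence itself differed between nestlings at these sites was not tested.

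Site L1, at position 458319 of scaffold VYZT01039064.1, was unmethylated in most nestlings after recent rain. The level was 0% in 5 of 6 recent rain nestlings (62642, 79328, 79676, 79684 and 79687), of which 62642 had 13 days since rain. Together the 69 reads behind these values allow a level of up to 4.35% if the 5 nestlings shared 1 level, and the Wilson upper limits of the single nestlings were 14.9 to 27.8%. The sixth, 62645, with 14 days since rain, was at 54.5% (6 of 11 reads, Wilson 95% interval 28 to 78.7%). The 15 dry nestlings ranged from 27.8% through a median of 73.3% to 100%, and none was at 0%. The sides thus overlapped through 62645 alone, which lay above 2 of the dry nestlings. The means were 9.09% ± 22.3 (SD, n = 6) and 71.4% ± 20.4 (SD, n = 15), and the adjusted p from limma was 0.000548. Of the 6 recent rain values, 3 came from natal code OFS.

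The dry nestlings that were lowest at L1 shared a natal code: 79590 and 79591, of code BFD, were at 35.7% and 27.8%. L1 was called in 15 of 17 other settings of the site fit in which it was tested. It was not called by quasi-binomial regression (adjusted p = 0.966) or by the unmoderated linear model (adjusted p = 0.147), and the adjusted p was 0.0445 with 1 value per natal group and side, by limma in the last case. Of the 14 tested sites within 500 bp the smallest limma p was 0.115.

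Site L2, at position 33240 of scaffold VYZT01064660.1, was at 0% in 6 of 8 recent rain nestlings, with 72 reads behind the zeros (a shared level of up to 4.17%, single nestlings up to 19.4 to 27.8%), while 62645 was at 54.5% and 79685 at 90%. Of 16 dry nestlings 1 was at 0% (61667, 13 reads), and the others ranged from 41.7% to 100%. The ranges of the sides overlapped from 0% to 90%, and the sides differed in where most nestlings lay. The means were 18.1% ± 34.8 (SD, n = 8) and 76.7% ± 27.4 (SD, n = 16), with an adjusted p of 0.0057 from limma. For code EFH, found on both sides, nestling 79633 was at 0% 4 days after rain and nestling 62605 at 100% 34 days after rain, and for code CEG nestling 62645 was at 54.5% and nestling 79578 at 68.8%. L2 was called in 13 of 19 other settings, and with 1 value per natal group and side the adjusted p was 0.372.

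Site L3, at position 50157 of scaffold VYZT01039587.1, was at 0% in 4 of 8 recent rain nestlings (46 reads, a shared level of up to 6.52%, single nestlings up to 22.8 to 27.8%) and at 41.2, 45.5, 60 and 70% in the others. Its 13 dry nestlings ranged from 53.8% through 85.7% to 100%, so only 79685 and 79328 of the recent rain side reached into the dry range. The means were 27.1% ± 30.2 (SD, n = 8) and 83.1% ± 15.8 (SD, n = 13), with an adjusted p of 0.0219 from limma. Without nestling 79676 the limma adjusted p was 0.126, with a fitted difference of -3.30 against -3.47 on the logit scale. In nestlings raised by groups alone these were 0.679 and -2.84, and with 1 value per natal group and side 0.323 and -2.90. L3 was called in 10 of 18 other settings, and not with mean reads as a covariate (limma adjusted p = 0.139). Nestlings 62642 and 79676 were at 0% at L1, L2 and L3, while 62645 was intermediate at all of them.

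Site H1, at position 16073 of scaffold VYZT01008184.1, showed the opposite pattern. The level was 100% in 4 of 6 recent rain nestlings and 76.9% and 37.5% in the remaining ones, 79676 and 79328. In the dry spell 7 of 13 nestlings were at 0% (108 reads, a shared level of up to 2.78%, single nestlings up to 14.9 to 25.9%), 1 at 100%, and 5 between 40% and 72.7%. The means were 85.7% ± 25.4 (SD, n = 6) and 27.9% ± 34.5 (SD, n = 13), with an adjusted p of 0.0219 from limma. Nestlings of 1 natal code differed here within the dry side: 79591 was at 0% and 79590 at 50%. Of the 6 recent rain values 4 came from natal codes OFS and OFQ. H1 was called in 6 of 17 other settings, the fewest of the 4 sites, and the limma adjusted p was 0.392 with the rain side alone in the model and 1 with 1 value per natal group and side. It was 0.101 with mean reads as a covariate and 0.110 without nestling 79687. Of the 52 tested sites within 500 bp of H1 the smallest limma p was 0.00867, and their raw differences ran from -22.8 to 32.8 points.

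**Figure D5:**
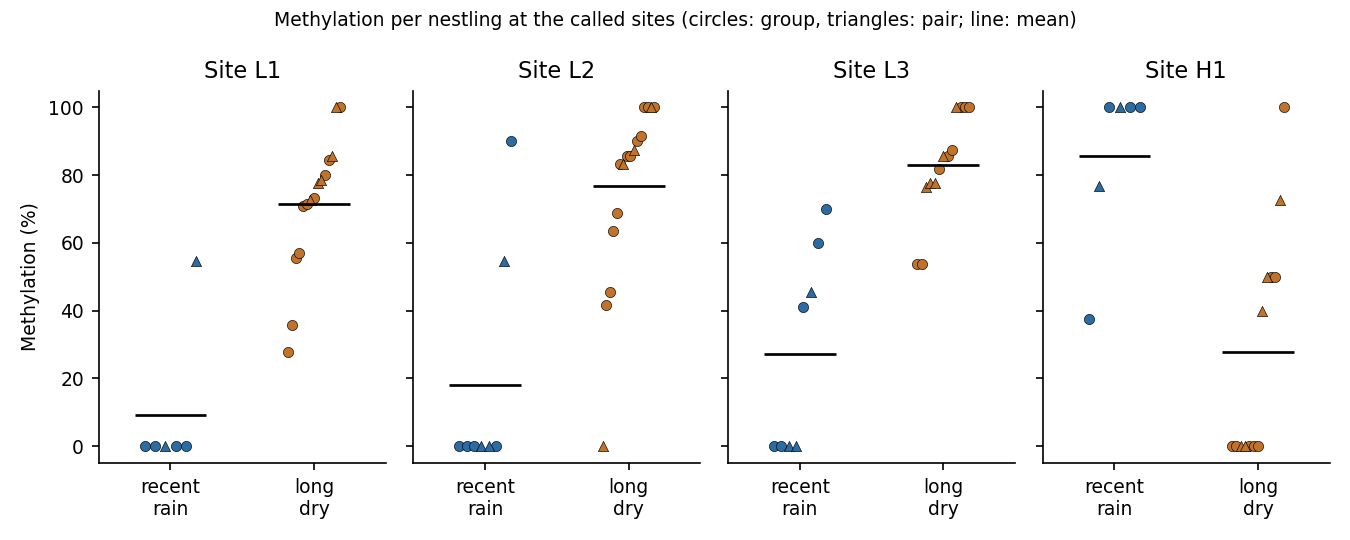
Methylation in percent for each nestling with a value at sites L1, L2, L3 and H1 (circles raised by groups, triangles by pairs), by rain side, with the mean as a line. At L1 5 of 6 recent rain nestlings were at 0% and no dry nestling was, and at H1 7 of 13 dry nestlings were at 0% and no recent rain nestling was.

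Nestlings 79687 and 79676 both contributed zeros at L1 and L2. Without nestling 79687 limma called 3 sites and without nestling 79676 also 3. Without both it called 0, with 63404 sites at an unadjusted p under 0.05. L1 and H1 then had values in too few recent rain nestlings to be tested, and L2 and L3 each had an adjusted p of 0.162. The fitted differences were nearly as large on the logit scale, at -3.91 against -4.43 for L2 and -3.41 against -3.47 for L3. In nestlings raised by groups alone 5 sites were called, of which L1 and L2 were among the 4.

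The next sites in each direction were not called, with limma adjusted p-values of 0.585 to 0.825, and most held a smaller and more even difference. Beta regression called 5 of these 6 sites, the unmoderated linear model called that at position 47769 of scaffold VYZT01004172.1 (adjusted p = 0.0276), and that at position 103240 of scaffold VYZT01004111.1 was called only with the logit of (methylated reads + 0.5)/(reads + 1). At position 47769 of scaffold VYZT01004172.1 all 15 dry nestlings were at 100%, and 6 of 7 recent rain nestlings lay between 75% and 83.3%, with 79677 at 100%. These dry values rested on 5 to 14 reads each, with a median of 7 against 9 after recent rain. At position 22462 of scaffold VYZT01053551.1 all 7 recent rain nestlings were at 100%, and the 16 dry nestlings averaged 83.7% ± 7.88 (SD), 1 of them at 100%. At position 185989 of scaffold VYZT01018756.1 8 of 9 recent rain nestlings were at 100%, with 79328 at 75%, against 81.5% ± 9.74 (SD, n = 17) in the dry spell. At position 30237 of scaffold VYZT01009702.1 the means were 96.3% ± 6.87 (SD, n = 8) and 80.4% ± 10.6 (SD, n = 19). The recent rain values of 100% at these last 3 sites rested on few reads each, mostly 5 to 8, with a median of 7 or 8 per site against 10 in the dry spell.

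The remaining uncalled sites resembled the called ones. At position 4307 of scaffold VYZT01059334.1 the recent rain values were 0, 0, 50, 55.6, 60 and 66.7% and the 13 dry values ran from 50% to 100% (38.7% ± 30.5, SD, n = 6, against 86.0% ± 19.6, SD, n = 13). At position 103240 of scaffold VYZT01004111.1 2 of 7 recent rain nestlings were at 0%, both of code OFS, and 11 of 17 dry nestlings at 100% (51.4% ± 38.9, SD, n = 7, against 94.4% ± 13.1, SD, n = 17).

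Neighbouring sites were also combined, because single values rested on few reads. Windows of 2 kb with at least 5 tested sites were fitted with the same model on the mean deviation from the site mean. Of 73146 windows 0 (0%) were called by limma, with 3270 at an unadjusted p under 0.05, a smallest adjusted p of 0.653 and an inflation factor of 0.951. The fitted difference was lower after recent rain in 57.4% of windows, with a median of -0.366 points and a range from -16.8 to 12 points. It was higher in 42.6% of windows, and in 47.2% without nestling 79687, 45.2% without nestling 79676, 50.3% without both and 34% with mean reads as a covariate, so the more frequent direction turned without both. The median 95% half-width of a single window, unadjusted for their number, was 4.37 points. None of the windows named below held a called site.

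The window with the smallest p in the lower direction spanned positions 126001 to 128000 of scaffold VYZT01031225.1. All 9 recent rain nestlings lay below the site means, by 1.47 to 15.1 points, and the 15 dry nestlings ranged from -6.10 to 10.7 points. The level was 83.5% after recent rain and 95.1% in the dry spell, a fitted difference of -11.4 ± 2.10 points (SE), and all 6 of its sites were lower after recent rain. Positions 1 to 2000 of scaffold VYZT01027226.1 (-11.3 points) and 288001 to 290000 of scaffold VYZT01007662.1 (-7.94 points) followed, each with a limma adjusted p of 0.744.

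In the higher direction the windows at 32001 to 34000 of scaffold VYZT01021227.1, 2001 to 4000 of scaffold VYZT01060172.1 and 2001 to 4000 of scaffold VYZT01021082.1 had fitted differences of 9.93, 10.9 and 8.32 points, each with a limma adjusted p of 0.9999. In the first of these, 8 of 9 recent rain nestlings lay 5.63 to 13.6 points above the site means, and nestling 62645 lay 10.2 points below them. In the second, all 7 recent rain nestlings lay above the site means, by 2.17 to 13.5 points, with dry nestlings from -14.8 to 8.67 points. The sides overlapped in each of the 3 windows.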

How the data were processed

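The deposited table held 1 row per CpG site and nestling for 28 nestlings. The authors trimmed the reads (HTStream), aligned them by Bismark against the babbler's own genome, merged strands and filtered sites on coverage, variation and presence in each carer class, not in each rain side. Versions were not given in the sources used here. The deposited percent values are methylated over all reads, not normalized between nestlings. For nestling 79687 alone, the deposited read counts of each kind were given. In the 27 others reads were recovered from the percentage and the deposited coverage count, read as the sum of unmethylated reads and doubled methylated reads, each term counted only from 10 upwards, which gave whole reads for 100% of values within a tolerance of 1e-06. This reading was chosen after seeing the data. Cross-fostering status was not analysed here, and 2 further columns with nestling values were left unused. The p-values measure the spread between these nestlings, not between rain events. Some nestlings had the same number of days since rain, such as 79633, 79676 and 79677, and were not separate replicates of it. Breeding season was not among the values used, and whether it differed between the sides was not tested.

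The members, the lists and limma as the main fit in place of beta regression were chosen with earlier results of these data known. Sites with a value in at least 60% of each side were fitted with limma 3.58.1 in R 4.3.3 on the logit of (y(n-1)+0.5)/n, with rain side, carer class and age as terms and the natal code as a block (consensus correlation 0.0137 over 10000 random sites), and called where the adjusted p did not exceed 0.05. The study gives no rain test. Beta regression with rain side, carer class and age was an alternative. It lacked the random effect of brood and the cross-fostering term of the study's beta model for carers. Windows of 2 kb needed 5 sites and 3 values in a nestling. Named sites were, in each direction, the 5 called sites of smallest p and, where fewer were called, the next 3 as not called, and named windows the 3 of smallest p. Values per nestling were compared by permutation tests (100000 resamples, or exact) with Python 3.11.15, numpy 2.4.6, scipy 1.17.1 and numba 0.67.0. A planned correlation of days over all 28 nestlings was replaced by correlations within sides, since the days formed separate clusters. The fits were tested on simulated data and against limma, glmmTMB 1.1.9 and glm.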

Additional observations from a re-analysis of the deposited data

Results flagged for a closer look

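In all, 31 sets of 4 to 10 values were searched for a nestling whose gap to the next exceeded Dixon's 95% limit relative to the range. They were of the recent rain side and its named sites and windows, except the mean methylation of dry nestlings raised by pairs. Chance flags about 1 in 20 sets of independent values without ties. The 9 found are given as a description, since the sites were chosen for their pattern, some hold values tied at 0% or 100%, and the 3 measures of nestling 79676 overlap. Nestling 79676 was lowest in mean methylation over shared sites (72.6%, next 74.8%, gap 0.609 of the range), weighted by reads (65.6%, next 68.8%, gap 0.632) and in the deviation with at least 14 reads (-2.51 points, next -0.641, gap 0.567). Nestling 79687 had 0% of values under 10 reads (next 43.9%, gap 0.547).

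At site L1 on scaffold VYZT01039064.1, nestling 62645 was at 54.5% and the others at 0% (gap 1 of the range). At H1 on scaffold VYZT01008184.1, nestling 79328 was at 37.5%, next to 76.9% (gap 0.631). At the uncalled sites on scaffolds VYZT01004172.1 and VYZT01018756.1, nestling 79677 was at 100%, next to 83.3% (gap 0.667), and nestling 79328 at 75% with all others at 100% (gap 1). In the window on scaffold VYZT01021227.1, nestling 62645 was at -10.2 points, next to 5.63 points (gap 0.665). The causes were not tested.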

How the results depend on the processing

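Besides the site fit described, 23 settings were run, of which 5 were chosen after seeing the data. The count of called sites, 4, became 2 at an adjusted p of at most 0.01 with raw means 25 points apart and 1 with 1 value per natal group and side. It became 4961 with beta regression and 39 with beta regression at an adjusted p of at most 0.01 and predicted means 25 points apart. With mean reads as a covariate it became 2 (L1 and L2), and with days as a continuous measure 2 (L1 and L3). It became 141 with the logit of (methylated reads + 0.5)/(reads + 1) and 10 without moderated variances. Limma called 0 sites with a value in all nestlings (371 of 7729 at an unadjusted p under 0.05), in at least 80% of each side (8554 of 163544), with coverage of at least 20 (651 of 13625), with at least 10 recovered reads (2040 of 39834), without nestlings 79687 and 79676 and without sites holding both extremes, a filter that removes all 4 called sites. Quasi-binomial regression also called 0. Of the 4 called sites, the filter at 80% left L2 alone to test (adjusted p = 0.192), and the other filters on presence, coverage or reads left none. The inflation factor moved to 1.29 with beta regression and stayed within 0.1 of 0.995 elsewhere. Windows gave 0 calls in all 10 other settings, and the inflation factor of the windows with mean reads as a covariate was 1.20.

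Over the called sites and the settings in which they were tested, 71 in all, 44 stayed called and 27 did not, and none changed direction. The sites were chosen by their p in the main fit and the settings reused the same values, so a kept direction is no separate evidence. In 4 of the 44 the threshold alone was loosened, so the call could not be lost. Over the named sites that were not called and their settings, 111 in all, 9 became called. Leaving out each of the 28 nestlings moved the mean difference between -0.663 and -0.204 points. Of 73 alternatives for values per nestling, 71 kept direction and side of the threshold. The difference over all rule sites with reads taken out, -0.768 points, passed an unadjusted 0.05, and the correlation with days in the dry side over all rule sites changed sign to -0.227. No main result passed 0.05, so keeping the side meant staying above it. The alternatives were not independent, and 28 of them were the runs without 1 nestling. The dry-side correlation without the 2 nestlings farthest from the median days was not among the 73 (r = -0.487, permutation p = 0.0464). The causes were not tested. No paired analysis was possible because the replicate numbers are in accession order and the natal codes found on both sides gave only 2 pairs of nestlings, too few for a test. Single sites rested on about 10 reads a value and on 6 to 9 recent rain nestlings, and these limits were not compared.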
